A study of Mus musculus with 12 samples.

Results

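The genes described here are 31 genes of intestinal fat absorption, from fatty acid and sterol uptake through triglyceride resynthesis to the packing and export of chylomicrons. They were chosen by symbol from the deposited expression table of 16942 genes, and all 31 were present and were among the 12329 genes kept by a filter on low counts. The 12 RNA-seq libraries were made from small intestine of mice of the outbred ICR stock, with 3 libraries in each of 4 groups. The groups combined busulfan, a DNA alkylating agent that kills dividing cells, with AOS, whose abbreviation, unit and route the labels do not expand. AOS0 had no busulfan and AOS 0, AOS10 had no busulfan and AOS 10, B+A0 had busulfan and AOS 0, and B+A10 had busulfan and AOS 10. The labels name no mutation or transgene, and they state neither the age of the mice nor the busulfan dose nor the time of sampling. The labels also leave unstated if replicates are different mice, and every p-value below rests on a spread between libraries that may be technical.

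Enterocytes, the absorptive cells of the villus, take up fatty acids and monoacylglycerol from the gut lumen and carry them on binding proteins to the endoplasmic reticulum. There they are rebuilt into triglyceride, loaded onto apolipoprotein B by the microsomal triglyceride transfer protein, and dressed with further apolipoproteins to give a chylomicron. The particle leaves the endoplasmic reticulum in vesicles coated by the COPII proteins and reaches the lymph. Fat held back in the cell is stored in droplets and released from them by lipases.

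The start-site windows of 6 of these genes are printed here because the results turn on them: Cd36 and Preb passed the test between busulfan and control libraries, and Fabp2, Apob, Apoa4 and Creb3l3, picked after their values were seen, were 2.10 to 2.82 times higher in B+A0 replicate 1 than in the mean of replicates 2 and 3 and hold a match to the first motif. The windows are from RefSeq, build GRCm38.p6, and run from 250 bases before to 50 bases after an annotated start, read along the gene's strand. Capitals mark matches, on either strand, to CAAAGNNCA (a relaxed form of the site of the hepatocyte nuclear factor HNF4), TATAAA and CCAAT. The Cd36 window is at chr5:17835847-17836146 (minus strand), inside the gene's span and not at its outer end. The Preb window is at chr5:30960278-30960577 (minus strand), Fabp2 at chr3:122894822-122895121 (plus strand), Apob at chr12:7977427-7977726 (plus strand), Apoa4 at chr9:46240594-46240893 (plus strand), and Creb3l3 at chr10:81092542-81092841 (minus strand). The Creb3l3 window also lies inside the gene's span; the window at the gene's 5′ end, chr10:81098823-81099122, held no match to these motifs and is not printed.
Cd36: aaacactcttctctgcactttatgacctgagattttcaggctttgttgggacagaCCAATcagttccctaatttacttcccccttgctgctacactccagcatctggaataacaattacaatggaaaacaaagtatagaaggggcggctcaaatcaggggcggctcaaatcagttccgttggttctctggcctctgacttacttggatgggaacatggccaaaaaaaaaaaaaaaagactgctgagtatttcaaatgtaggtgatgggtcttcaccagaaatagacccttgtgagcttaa
Preb: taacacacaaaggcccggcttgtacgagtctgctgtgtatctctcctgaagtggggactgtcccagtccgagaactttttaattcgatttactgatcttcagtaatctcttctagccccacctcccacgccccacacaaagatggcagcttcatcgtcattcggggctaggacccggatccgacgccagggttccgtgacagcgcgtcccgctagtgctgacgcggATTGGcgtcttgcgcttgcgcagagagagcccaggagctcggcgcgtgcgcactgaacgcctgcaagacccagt
Fabp2: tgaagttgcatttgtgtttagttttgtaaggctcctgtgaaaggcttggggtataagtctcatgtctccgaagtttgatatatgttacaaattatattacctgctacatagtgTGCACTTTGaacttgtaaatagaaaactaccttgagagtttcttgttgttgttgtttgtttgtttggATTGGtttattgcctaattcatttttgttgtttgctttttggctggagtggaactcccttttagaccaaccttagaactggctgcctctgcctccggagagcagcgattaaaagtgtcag
Apob: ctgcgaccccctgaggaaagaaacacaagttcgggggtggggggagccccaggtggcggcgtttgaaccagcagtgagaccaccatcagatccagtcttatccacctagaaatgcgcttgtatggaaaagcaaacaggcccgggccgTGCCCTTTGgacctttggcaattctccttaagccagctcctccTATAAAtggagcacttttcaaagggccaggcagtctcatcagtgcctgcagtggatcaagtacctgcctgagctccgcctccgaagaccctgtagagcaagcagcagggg
Apoa4: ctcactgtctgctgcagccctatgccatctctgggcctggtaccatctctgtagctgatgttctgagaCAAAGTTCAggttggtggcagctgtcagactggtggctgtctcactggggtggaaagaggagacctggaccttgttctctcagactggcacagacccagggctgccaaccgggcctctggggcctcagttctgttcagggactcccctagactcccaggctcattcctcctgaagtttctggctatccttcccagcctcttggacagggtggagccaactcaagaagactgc
Creb3l3: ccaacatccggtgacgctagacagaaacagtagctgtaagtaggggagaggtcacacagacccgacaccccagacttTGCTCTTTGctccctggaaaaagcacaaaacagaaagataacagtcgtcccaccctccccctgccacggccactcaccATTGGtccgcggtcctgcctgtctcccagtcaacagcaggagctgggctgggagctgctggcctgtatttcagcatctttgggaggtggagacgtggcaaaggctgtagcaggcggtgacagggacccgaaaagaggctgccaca

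Of the 31 genes, 24 had a window in the RefSeq table. CAAAGNNCA was found in 5 of the 24, starting at -182 in Apoa4, -103 in Apob, -191 in Apobec1, -173 in Creb3l3 and -137 in Fabp2, counted from the annotated start. The same letters were in 6.36% of all 32851 windows of that length. Of the 5 genes with the match, Apoa4, Fabp2, Apob and Creb3l3 had ratios between B+A0 libraries of 2.82, 2.6, 2.15 and 2.1. Apobec1 holds the match with a ratio of 1.47, and Fabp1, Apoa1 and Apoc2, at 2.24, 2.25 and 2.73, have windows without it. A link between the match and the ratio was not tested. CCAAT was found in 10 of the 24, Cd36 at -195 and Preb at -24 among them, against 37.4% of all windows, and TATAAA in 4 of the 24 against 13.6%. The HNF1 motif GTTAAT was found in 3 of the 24 (Fabp1, Apoc2 and Npc1l1), against 7.1% of all windows, and the GATA motif AGATAA in 1 of the 24, against 11.2%. No window of the 24 held CAAAGTCCA (0.475% of all windows), which is one form of CAAAGNNCA, or the unfolded protein response motif TGACGTGG (0.676%), which says only that these letters are not in these windows.

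Libraries held 13560232 to 16818245 counts, and the 31 genes took 0.971% to 1.78% of them. The tissue label was checked against 15 markers of absorptive enterocytes, such as Vil1 and Sis, all of which were in the table and tested; their summed level was 10500 to 19170 CPM (counts scaled to library size, with the trimmed mean of M-values, TMM). Of the 15, Anpep reached 136282 counts and Vil1, the next highest, 40524, so the sum is weighted towards Anpep. Adipoq and Fabp4, which define adipocytes, reached at most 1 count in any library, and the liver and smooth muscle lists summed to at most 3.18 and 3.21 CPM. Of the rest of the adipocyte list, Cidec and Acvr1c reached 425 and 125 counts, and the list summed to 17.04 to 31.94 CPM. B+A0 replicate 1 stood apart from the other 2 libraries of its group. It was the highest of the 3 for 28 of the 31 genes (90.3%), against 35% of all genes tested, and its level was 1.45 times the mean of replicates 2 and 3 in the median gene, against 0.988 times over all genes. In B+A10, replicate 3 was the lowest library for 22 of the 31 genes (71%), against 40.3% of all genes. Counts and medians for the busulfan groups are therefore also given without single libraries where these move them.

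**Figure D1:**
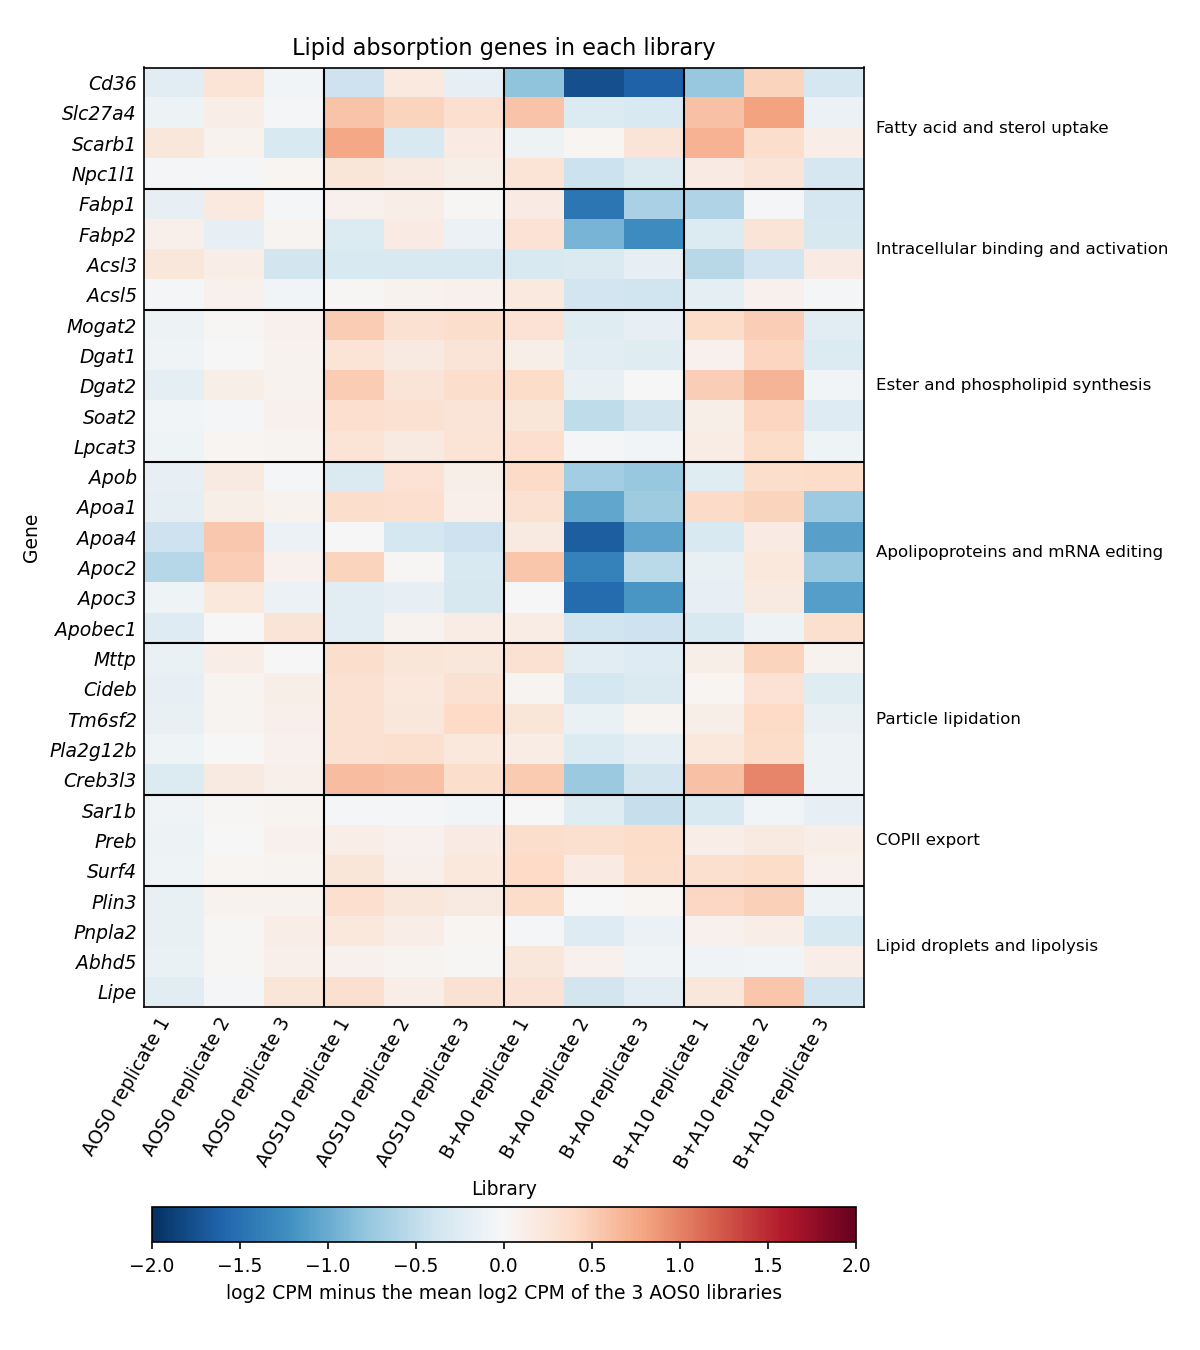
Each row is 1 of the 31 genes, grouped by role, each column is 1 library, and colour is log2 CPM minus the mean log2 CPM of the 3 AOS0 libraries (red higher, blue lower). B+A0 replicates 2 and 3 are mostly blue in the binding protein and apolipoprotein rows, B+A0 replicate 1 is not, and Cd36 is blue in all 3.

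Levels between genes were compared per transcript length, as FPKM, in the AOS0 libraries. Apoa1, the main protein of high density lipoprotein, led at 3297 ± 317 FPKM (SD, n = 3), above Fabp2 at 1531 ± 156, Fabp1 at 1504 ± 185 and Apoa4 at 1208 ± 419. The last 3 of these did not differ beyond their spread. Mttp, at 382.7 ± 30.1 FPKM, overlapped Apoc2 and Apoc3 but lay above Dgat1 throughout (358.85 to 416.46 against 336.2 to 354.82 FPKM). The means of Apoc2, Apoc3 and Dgat1 lay between 344 and 364.6 FPKM. Surf4, Tm6sf2, Acsl5 and Mogat2 followed between 248.1 and 286.2 FPKM. Each of these 4 overlapped the next of them, while the block as a whole stood clear of Dgat1 above it and of Cideb below it. Apoc2, with a higher mean, ran from 243.86 to 485.07 FPKM and so reached into the block. Apob, a very long transcript, was at 57.76 FPKM, beside Creb3l3, Dgat2 and Preb. The lowest were Cd36 at 4.99 ± 0.826 FPKM and Scarb1 at 3.12 ± 0.640 FPKM, so the scavenger receptors for fatty acids and for lipoproteins were the least abundant of the 31 in these libraries.

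The comparison of B+A0 with AOS0 asks what busulfan did without AOS. Cd36, which carries long-chain fatty acids into cells, fell to 0.394 of its AOS0 level, and Preb, the exchange factor that starts COPII coat assembly by activating Sar1, rose 1.27-fold. These were the only members of the list to pass edgeR's quasi-likelihood test with Benjamini-Hochberg adjustment over all genes, 2 of 31, in a comparison in which 3.64% of all genes were called (1.70% higher and 1.94% lower). The binding proteins and apolipoproteins had lower means with busulfan but did not pass, and in each of those described here B+A0 replicate 1 lay within or above the controls. Of the 31 genes, 22 lay below 0 on the log2 scale, against 51.2% of all genes, and the median was -0.12, against -0.01 over all genes. Single libraries moved this balance: without B+A0 replicate 1, 26 lay below 0 (median -0.30), without B+A0 replicate 2, 16 (median -0.01), and without B+A0 replicate 3, 20 (median -0.04). Leaving out AOS0 replicate 1 gave a median of -0.18, and leaving out AOS0 replicate 3 gave -0.08.

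Among the uptake genes, Cd36 (gene 12491, chr5:17781690-17888959, GRCm38) stood at 10.6, 14.8 and 11.8 CPM in AOS0 replicates 1 to 3, and at 7.03, 3.63 and 4.0 CPM in B+A0. All 3 busulfan libraries lay below all 3 controls, and B+A0 replicate 1 was 1.84 times the mean of replicates 2 and 3. The fitted difference was -1.34 on the log2 scale (SE 0.32, 95% interval -2.03 to -0.66, edgeR adjusted p = 0.0398). In B+A10 it stood at 7.28, 16.8 and 9.75 CPM, and in AOS10 at 9.15, 14.1 and 10.9 CPM, so both groups overlapped AOS0. Set against the enterocyte markers of the same library (their summed CPM), Cd36 was at 0.794, 1.04 and 0.772 CPM per 1000 marker CPM in AOS0 and at 0.40, 0.327 and 0.381 in B+A0, where the groups also did not overlap. Cd36 is also made by macrophages, endothelium and adipocytes, and in bulk tissue fewer cells of a type and less RNA per cell cannot be told apart. The 7 macrophage markers summed to 63.72 to 94.45 CPM in AOS0 and 61.6 to 85.55 CPM in B+A0, most of it Cd14, and Adgre1 reached at most 2 counts. Of the 4 macrophage markers tested, 3 lay below 0 in B+A0 (median -0.84), 2 of them with groups that did not overlap, and none was called. The 8 endothelial markers summed to 11.33, 14.16 and 15.38 CPM in AOS0 and to 10.29, 10.13 and 9.46 CPM in B+A0, so all 3 busulfan libraries were below all controls. All 3 endothelial markers tested lay below 0 (median -0.47), 2 with groups that did not overlap, and none was called. Of the 2 adipocyte markers tested, 1 lay above 0 and 1 below, the latter with groups that did not overlap, and neither was called. The 7 T cell markers all fell in B+A0, with a median of -1.97 on the log2 scale and adjusted p from 0.0165 to 0.0427 with edgeR. The part of these cells in the Cd36 result was not tested.

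Npc1l1, the sterol transporter of the brush border, was at 649.0, 648.4 and 678.0 CPM in AOS0, at 793.7, 486.3 and 539.6 CPM in B+A0, at 775.7, 749.4 and 713.3 CPM in AOS10 and at 738.0, 782.9 and 520.3 CPM in B+A10. One busulfan library lay above all the controls and the other 2 below, which left a fitted difference of -0.12 (SE 0.17, edgeR adjusted p = 0.733). The fatty acid transport protein Slc27a4 and the lipoprotein receptor Scarb1 were each at 0.05 in that comparison and did not pass.

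The 4 genes that bind or activate fatty acids all lay below 0 in B+A0, with a median of -0.38, and none was called. Fabp1, the liver-type fatty acid binding protein, was at 475.2, 608.0 and 520.2 CPM in AOS0 and at 598.6, 194.2 and 340.1 CPM in B+A0. Fabp2, the intestinal form, was at 1338, 1118 and 1305 CPM in AOS0 and at 1528, 655.5 and 520.1 CPM in B+A0. In both genes B+A0 replicate 1 lay within or above the controls and replicates 2 and 3 lay below all of them. The fitted differences were -0.50 (edgeR adjusted p = 0.335) for Fabp1 and -0.48 (edgeR adjusted p = 0.403) for Fabp2. Without B+A0 replicate 1 they were -0.997 (adjusted p = 0.0189) and -1.09 (adjusted p = 0.00931). That omission is singled out because replicate 1 was seen to be high in these genes, so it is no separate support. It was the only 1 of 6 omissions to pass for either gene, and calls over all genes rose in that fit to 1099, from 449. The differences reached -0.19 in both genes over the 6 fits, with edgeR adjusted p up to 0.68 for Fabp1 and 0.826 for Fabp2.

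The genes of triglyceride and sterol ester synthesis lay closer to 0. Mogat2, which joins fatty acid to monoacylglycerol, was at 370.7, 403.9 and 425.2 CPM in AOS0 and 488.4, 338.7 and 355.5 CPM in B+A0, a fitted difference of -0.02 (SE 0.17). Dgat1, which completes triglyceride, was at 503.8, 529.3 and 558.4 CPM in AOS0 and 576.4, 453.6 and 447.2 CPM in B+A0. Dgat2, which catalyses the same step, was at 95.2, 118.4 and 114.8 CPM in AOS0 and 140.5, 98.5 and 107.9 CPM in B+A0. In each of these B+A0 replicate 1 was the highest of the 6 libraries. The 5 genes of this role, with the sterol ester enzyme Soat2 and the phospholipid enzyme Lpcat3, ranged from -0.17 to 0.09, and none was called.

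All 6 apolipoprotein and mRNA editing genes lay below 0, with a median of -0.33, and none was called. Apob, the scaffold of the chylomicron, was at 694.9, 877.1 and 767.0 CPM in AOS0 and at 1008, 481.0 and 458.3 CPM in B+A0. Apoa4, an apolipoprotein of nascent chylomicrons, was at 1308, 2538 and 1619 CPM in AOS0 and at 1975, 559.2 and 841.2 CPM in B+A0. Apoc3, an inhibitor of lipoprotein lipase, was at 131.9, 161.0 and 128.6 CPM in AOS0 and at 138.7, 48.1 and 62.1 CPM in B+A0. In all 3 genes replicates 2 and 3 lay below every control and replicate 1 did not. The fitted difference of Apoc3 was -0.76 (SE 0.35, edgeR adjusted p = 0.221), that of Apoa4 was -0.70 (SE 0.41, edgeR adjusted p = 0.351), and that of Apob was -0.26 (SE 0.27, edgeR adjusted p = 0.617). Without B+A0 replicate 1 they were -1.35 (adjusted p = 0.0174), -1.38 (adjusted p = 0.0314) and -0.73 (adjusted p = 0.0396). This omission too is singled out after the values were seen, and it was the only 1 of 6 to pass for each gene. Over the 6 fits the differences reached -0.48, -0.37 and -0.06, with edgeR adjusted p up to 0.547, 0.706 and 0.956. Apoa1, Apoc3 and Apoa4 are neighbours on chromosome 9, between 46228630 and 46243458 (GRCm38), and their ratios of replicate 1 to the mean of replicates 2 and 3 were 2.25, 2.52 and 2.82. The ratio was 2.73 for Apoc2, which activates lipoprotein lipase, and 2.15 for Apob.

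Of the 5 lipidation genes, 4 lay below 0 and none was called. Mttp, the transfer protein, was at 1315, 1569 and 1433 CPM in AOS0 and 1778, 1244 and 1202 CPM in B+A0, a fitted difference of -0.03 (SE 0.14). Creb3l3, a membrane-bound transcription factor of lipid metabolism, was at 93.3, 127.3 and 120.9 CPM in AOS0 and 162.7, 67.6 and 87.5 CPM in B+A0, a fitted difference of -0.10 (SE 0.30). In both genes replicate 1 was above all the controls and replicates 2 and 3 were below all of them. Cideb, Tm6sf2 and Pla2g12b lay between -0.19 and 0.06.

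Of the 3 export genes, 1 rose and 2 did not pass. Preb (gene 50907, chr5:30951667-30960356, GRCm38) was at 157.0, 169.1 and 178.0 CPM in AOS0 and at 214.5, 210.5 and 216.0 CPM in B+A0, and the 3 busulfan libraries, replicate 1 included, were almost level and above all controls. The fitted difference was 0.35 (SE 0.070, 95% interval 0.20 to 0.50, edgeR adjusted p = 0.0254). Surf4, a receptor that gathers lipoproteins into COPII vesicles, was at 621.1, 678.9 and 688.8 CPM in AOS0 and 875.0, 740.7 and 845.8 CPM in B+A0. Its groups did not overlap, but its difference of 0.31 (SE 0.095) had an adjusted p of 0.0836 with edgeR and 0.0296 with DESeq2. Sar1b, the GTPase of the coat that serves chylomicrons, was at 149.4, 158.7 and 162.7 CPM in AOS0 and 158.2, 132.1 and 114.2 CPM in B+A0, a difference of -0.22 (edgeR adjusted p = 0.255). The share of the 31 genes whose groups did not overlap, 2 higher and 1 lower, can be read against 14.4% higher and 14.6% lower over all genes. Per 1000 CPM of enterocyte markers, Preb was at 11.7 to 11.9 CPM in AOS0 and 12.2, 18.9 and 20.6 CPM in B+A0. Preb overlaps Abhd1 and Surf4 overlaps Surf2 in the RefSeq annotation, and no source used here gives the strand setting of the counting, so the reads of such pairs cannot be told apart.

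The 4 droplet and lipolysis genes lay within 0.14 of 0. Abhd5, the activator of the triglyceride lipase Pnpla2, was at 18.4, 20.7 and 21.8 CPM in AOS0 and 23.7, 21.4 and 19.3 CPM in B+A0, a difference of 0.08 (SE 0.11). Plin3, Pnpla2 and Lipe lay between -0.14 and 0.14, and none of the genes of this role was called.

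**Figure D2:**
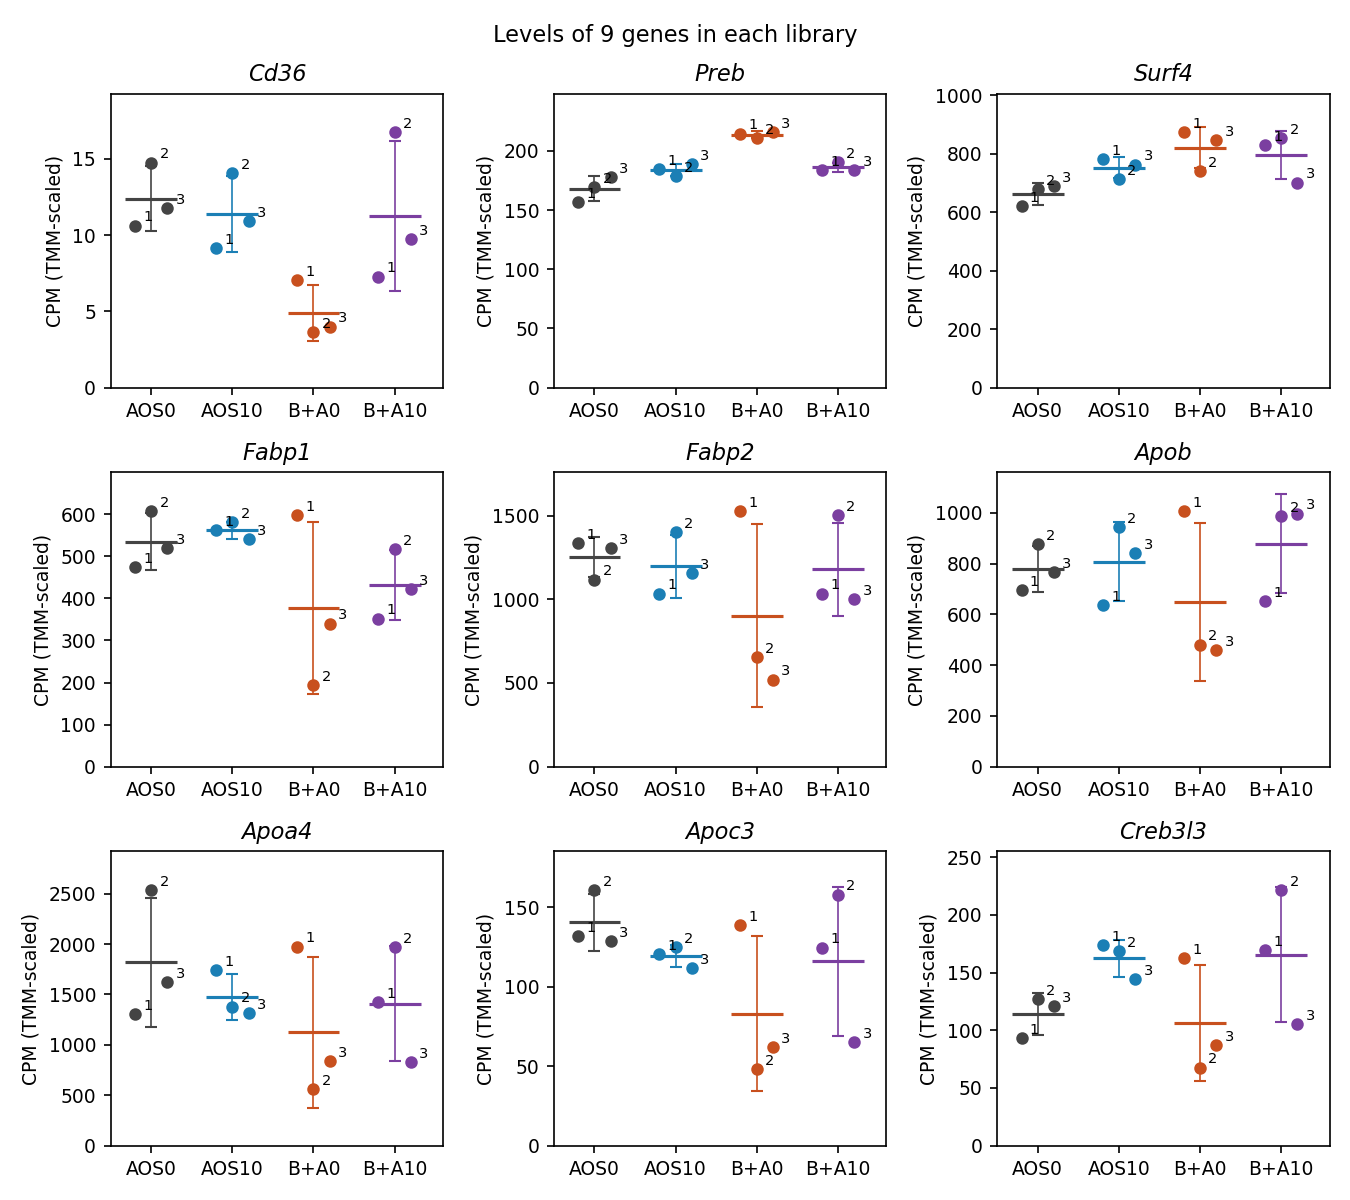
CPM (TMM-scaled) of 9 genes in each of the 12 libraries, with 1 point per library numbered by replicate, a horizontal line at the group mean and bars of 1 SD (n = 3). Cd36 is lower and Preb and Surf4 are higher in all 3 B+A0 libraries than in any AOS0 library. B+A0 replicate 1 lies apart from replicates 2 and 3, above both, for Cd36 and in the other 6 panels.

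Both calls were lost when single libraries were left out. Leaving out any one of the 3 AOS0 libraries or B+A0 replicate 2 or 3 took Cd36 to an adjusted p of 0.091 to 0.174 with edgeR, at differences of -1.17 to -1.44, and Preb to 0.0518 to 0.0967, at differences of 0.30 to 0.39. Without B+A0 replicate 1 both passed (edgeR adjusted p = 0.015 and 0.0218). Calls over all genes moved in the same way. They fell from 449 to between 21 and 213 in the fits that lost both genes, and rose to 1099 without B+A0 replicate 1.

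The other genes of the pathway were read from a list of 87, of which 86 were in the table and 67 were tested. In B+A0 against AOS0, 3 rose and 1 fell, against 1.70% and 1.94% of all genes, and their median was 0.04. The 3 that rose are among the 14 COPII genes of that list, picked out after their values were seen, of which 10 lay above 0 and 4 below, from -0.42 for Mia2 to 0.47 for Sec24d, with a median of 0.16. Sec23b, of the inner coat, went from 126.6 ± 5.63 to 174.2 ± 2.82 CPM (SD, n = 3), a difference of 0.46 (SE 0.071, edgeR adjusted p = 0.0106). Sec16a, the scaffold of exit sites, differed by 0.36 (SE 0.076, edgeR adjusted p = 0.0291), and Sec24c, a cargo-binding coat subunit, by 0.32 (SE 0.071, edgeR adjusted p = 0.0327). In these 3 genes all B+A0 libraries were above all AOS0 libraries. That held for 8 of the 14 COPII genes, against 14.4% of all genes. The gene that fell, the fatty acid transport protein Slc27a1, went from 8.01 ± 1.29 to 4.93 ± 0.457 CPM, a difference of -0.70 (SE 0.16, edgeR adjusted p = 0.0382). The outer coat gene Sec13 was at 0.31 (edgeR adjusted p = 0.0553), the sterol exporters Abcg5 and Abcg8 at -0.48 (0.0641 by the same test) and -0.59 (0.06), and Slc27a2 at -0.42 (0.06). Leaving out each library in turn left Sec23b called in 4 of 6 fits, Sec16a in 2, Sec24c in 1 and Slc27a1 in 0.

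**Figure D3:**
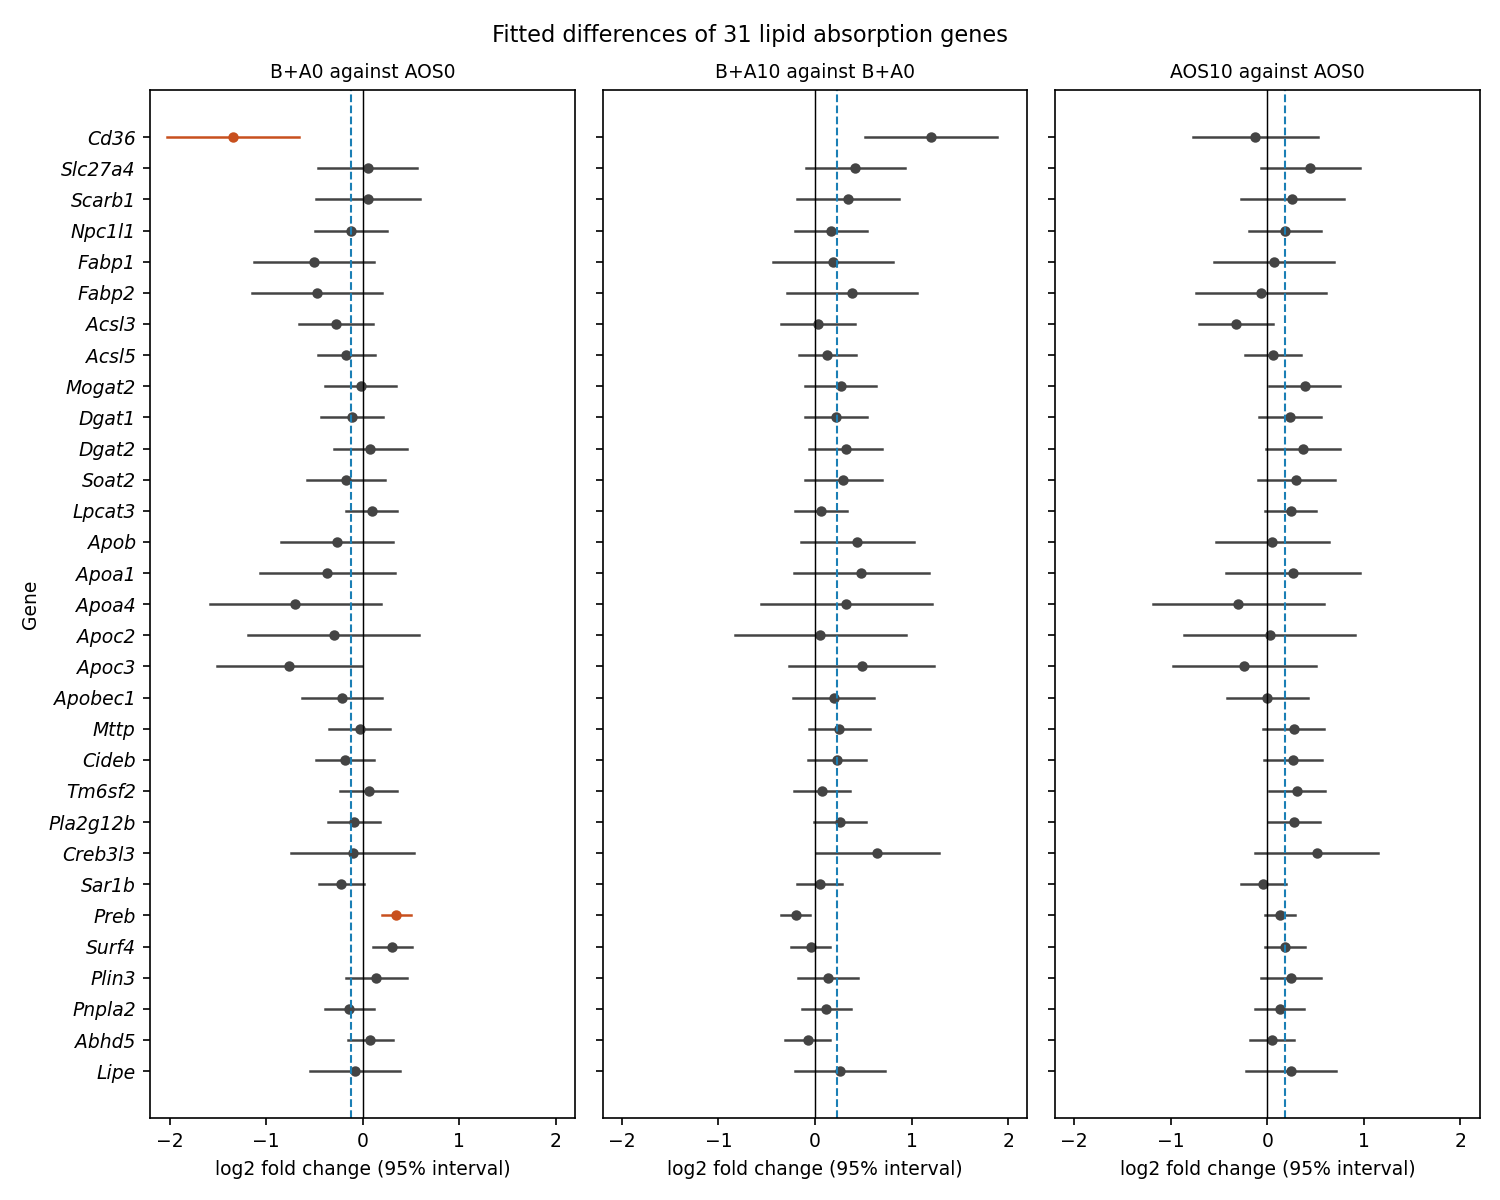
Fitted log2 fold change of each of the 31 genes with its 95% interval in 3 comparisons (B+A0 against AOS0, B+A10 against B+A0, AOS10 against AOS0), with an orange mark for genes past an adjusted p of 0.05 and a dashed line at the median. Cd36 and Preb are the marked genes, both in the left panel, and the dashed line moves from -0.12 on the left to 0.23 in the middle and 0.18 on the right.

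What AOS did in busulfan-treated mice is asked by B+A10 against B+A0. No gene of the 31 and no gene in the whole table was called by edgeR (0% of 12329 genes, smallest adjusted p = 0.0826), while 3 of the 31 and 9.81% of all genes had an unadjusted p under 0.05. Of the 31, 28 lay above 0, against 51.8% of all genes, and the median was 0.23. The median was 0.41 without B+A0 replicate 1, where 45 of 12496 genes were called, Fabp2 among them (1.01, edgeR adjusted p = 0.0447). It was 0.13 and 0.15 without B+A0 replicates 2 and 3, and 0.09 and 0.34 without B+A10 replicates 2 and 3, with 24 to 30 of the 31 above 0 in these 5 fits. The largest values were those of Cd36 at 1.21 (SE 0.32, 95% interval 0.52 to 1.89, edgeR adjusted p = 0.28) and Creb3l3 at 0.65 (SE 0.30, edgeR adjusted p = 0.508). With DESeq2 1 of the 31 was called, Cd36 (adjusted p = 0.0289).

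All 3 B+A10 libraries were above all 3 B+A0 libraries for Cd36, by a narrow margin, since the highest B+A0 library was at 7.03 CPM and the lowest B+A10 library at 7.28 CPM. The 7 T cell markers all lay above 0 in the same comparison (median 1.27, 3 with groups that did not overlap), as did 3 of the 4 macrophage markers (median 0.54), none called, and their part in the Cd36 value was not tested. Preb was below 0, at 183.5, 190.6 and 183.7 CPM in B+A10, with each library under each of B+A0 and a difference of -0.20 (SE 0.070, edgeR adjusted p = 0.389). These were the only genes of the 31 whose groups did not overlap, against 4.83% of all genes higher and 5.41% lower. Surf4 was at 829.7, 854.4 and 701.6 CPM in B+A10, near its B+A0 levels, with a difference of -0.05. The values of this comparison and of the previous one share the B+A0 libraries, so their opposite signs are not independent.

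Creb3l3 was at 169.6, 221.6 and 105.6 CPM in B+A10 and overlapped B+A0. The binding proteins also overlapped: Fabp1 was at 351.8, 517.5 and 422.9 CPM and Fabp2 at 1034, 1501 and 1000.0 CPM in B+A10. All 6 apolipoprotein and editing genes lay above 0, with a median of 0.38 and none called. Apob was at 652.8, 988.0 and 997.1 CPM, Apoa4 at 1425, 1973 and 827.0 CPM, and Apoc3 at 124.7, 158.0 and 65.1 CPM in B+A10. For Apoa4 and Apoc3, replicate 3 was the lowest library and lay near B+A0 replicates 2 and 3. The 5 synthesis genes all lay above 0 with a median of 0.26: Mogat2 was at 514.0, 563.3 and 343.2 CPM, Dgat1 at 561.4, 715.5 and 437.4 CPM, and Dgat2 at 153.2, 174.7 and 104.9 CPM. Mttp was at 1561, 1956 and 1509 CPM, and Abhd5 at 19.2, 19.6 and 22.3 CPM. The ranges of B+A0 and B+A10 overlapped in each of these genes.

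Of the 67 other pathway genes tested, none was called in B+A10 against B+A0, 45 lay above 0 and their median was 0.07. The acyltransferase Lpcat4 was at -0.41 (edgeR adjusted p = 0.415). Slc27a2 was at 0.37, Abcg8 at 0.44, the nuclear receptor Hnf4g at 0.48, and A1cf, a cofactor of Apob mRNA editing, at 0.28.

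The enterocyte markers moved with the lipid genes from library to library. Their summed CPM was 17560, 11120 and 10500 in B+A0 replicates 1 to 3, 16160, 19170 and 13230 in B+A10, 13370, 14230 and 15220 in AOS0 and 18020, 17670 and 16460 in AOS10. The median difference of the 31 genes from the AOS0 mean was 0.25, -0.29 and -0.29 on the log2 scale in B+A0 replicates 1 to 3 and 0.11, 0.35 and -0.15 in B+A10, so the libraries low in one were low in the other. In B+A0 against AOS0, 14 of the 15 markers lay below 0 (median -0.18) and none was called, and in B+A10 against B+A0 all 15 lay above 0 (median 0.29) and none was called. Markers of the proximal small intestine summed to 858.7 to 1042 CPM in AOS0, to 846.1, 521.3 and 666.7 CPM in B+A0 and to 1061, 1098 and 680.5 CPM in B+A10. That sum is not separate from the enterocyte sum, because Lct is in both lists. Lct reached 10687 counts, against 4429 for Gata4, the next highest proximal marker. Markers of the distal part summed to 1858, 1253 and 936.8 CPM in B+A0 and to 1515 to 1741 CPM in AOS0. In B+A10 they summed to 1254, 1255 and 1202 CPM, below every AOS0 library and every AOS10 library (1380 to 1543 CPM). The part of enterocyte content or of the stretch of intestine sampled in the lipid gene values was not tested. Per summed marker CPM, B+A0 and AOS0 did not overlap for 3 of the 31 genes that were higher (Preb, Surf4 and Plin3), against 3.22% of all genes, and for 3 that were lower (Cd36, Fabp1 and Apoc3), against 5.28%.

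**Figure D4:**
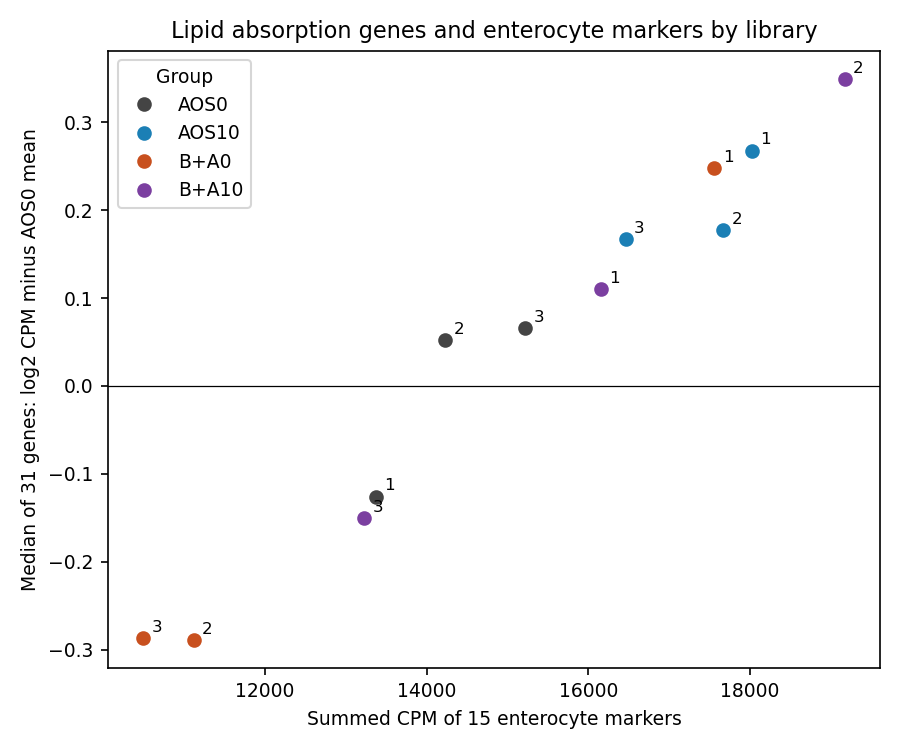
Each point is 1 library: the x axis is the summed CPM of 15 enterocyte markers, the y axis is the median over the 31 genes of log2 CPM minus the AOS0 mean, colour is the group and the number is the replicate. B+A0 replicates 2 and 3 lie lowest on both axes (10500 and 11120 CPM), and B+A0 replicate 1 lies among the AOS10 libraries at 17560 CPM.

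The comparison of AOS10 with AOS0 asks what AOS did without busulfan. No gene of the 31 and no gene in the table was called by edgeR (0% of 12329 genes, smallest adjusted p = 0.119), and DESeq2 called 0 of the 31. An unadjusted p under 0.05 was found for 3 of the 31, Mogat2, Tm6sf2 and Pla2g12b, and for 6.23% of all genes. Of the 31, 24 lay above 0, against 47.8% of all genes, with a median of 0.18. All 3 AOS10 libraries were above all 3 AOS0 libraries for 15 of the 31, against 11.0% of all genes, and below them for 1, Apoc3, against 9.67%. The 15 included all 5 synthesis genes and all 5 lipidation genes, and none of the binding or apolipoprotein genes. Adjusted p over the 31 ran from 0.798 to 1.00 with edgeR, so none of these differences passed after adjustment over all genes tested. Per 1000 CPM of enterocyte markers, no gene of the 15 stood above its AOS0 libraries in all 3 AOS10 libraries. On that scale Mttp was at 102, 96.1 and 102 CPM in AOS10 and at 98.4, 110 and 94.1 CPM in AOS0. Npc1l1 (42.4 to 43.3 against 44.5 to 48.5 CPM) and Preb (10.1 to 11.5 against 11.7 to 11.9 CPM) lay below their AOS0 libraries.

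Mogat2 was at 565.8, 494.9 and 509.5 CPM in AOS10, a difference of 0.39 (SE 0.17, edgeR adjusted p = 0.798). Dgat1 was at 638.1, 600.9 and 636.7 CPM, Dgat2 at 154.9, 129.7 and 139.7 CPM and Mttp at 1833, 1699 and 1685 CPM. The last 3 genes lay above their AOS0 libraries at differences of 0.24 to 0.37. Creb3l3 was at 173.9, 168.6 and 144.0 CPM, a difference of 0.51 (SE 0.30), and Slc27a4 at 864.4, 795.6 and 736.7 CPM, a difference of 0.45. Preb, at 184.6, 178.8 and 188.8 CPM, and Surf4, at 781.3, 712.8 and 762.9 CPM, were above their AOS0 libraries too, at 0.13 and 0.18. Fabp1, at 562.2, 581.2 and 541.2 CPM, Fabp2, at 1034, 1403 and 1157 CPM, and Apob, at 637.2, 944.2 and 841.3 CPM, overlapped AOS0. Apoa4 was at 1738, 1380 and 1317 CPM, Abhd5 at 21.5, 21.0 and 20.5 CPM, and Apoc3 at 120.6, 125.2 and 111.9 CPM. Of these last 3 genes, Apoc3 alone stood below its controls, at -0.24 (SE 0.34). The summed enterocyte markers were also higher in all 3 AOS10 libraries (16460 to 18020 CPM) than in all 3 AOS0 libraries (13370 to 15220 CPM), with 11 of 15 above 0 and none called, and their part was not tested. The median coefficient of variation of the 31 genes was 9.46% in AOS0 and 5.83% in AOS10, against 22.8% in B+A0 and 22.3% in B+A10. Over all genes tested it was 8.3%, 7.33%, 10.4% and 13.6% in the same order of groups.

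The remaining comparisons set B+A10 against each group without busulfan. Against AOS10, none of the 31 was called (background 0.162% of all genes) and none had an unadjusted p under 0.05 (10.2% of all genes). Of the 31, 22 lay below 0, against 49.1% of all genes, with a median of -0.07. Without B+A10 replicate 3, 11 lay below 0 and the median was 0.02, and without B+A10 replicate 2, 25 lay below 0 and the median was -0.22. Fabp1, at -0.38, was the 1 gene whose groups did not overlap, lower with busulfan, against 6.92% of all genes. Cd36 was at -0.01 and Preb at 0.01 in that comparison. Against AOS0, none of the 31 was called (background 0.957% of all genes), 2 had an unadjusted p under 0.05 (15.7% of all genes), and 20 lay above 0, against 50.0% of all genes, with a median of 0.11. Without B+A10 replicate 3, 3 were called (Dgat2, Surf4 and Plin3), in a fit that called 763 of 12498 genes, and the median was 0.21. Without B+A10 replicate 2, 14 lay above 0 and the median was -0.04. Without AOS0 replicate 1 the median was 0.06. Preb, at 0.15, and Surf4, at 0.26, were above all AOS0 libraries, against 9.25% of all genes. Of the other pathway genes, 1 was called against AOS0, where 0.754% of all genes rose: Plin2, the coat protein of lipid droplets, rose from 87.95 ± 3.99 to 112.5 ± 7.27 CPM (SD, n = 3), a difference of 0.36 (SE 0.076, edgeR adjusted p = 0.0481). Its edgeR adjusted p was 0.111 to 0.197 in the 4 fits without any one of the AOS0 libraries or B+A10 replicate 1, and 0.198 when only the compared groups were fitted. Of the 14 other COPII genes, 12 lay above 0 in B+A10 against AOS0 (50.0% of all genes), and none was called. For 10 of the 14, all B+A10 libraries were above all AOS0 libraries, against 9.25% of all genes.

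Whether AOS acted differently with and without busulfan was tested as the interaction, the B+A10 minus B+A0 difference less the AOS10 minus AOS0 difference. No gene was called by edgeR (0% of all genes, smallest adjusted p = 0.499), with an unadjusted p under 0.05 for 2 of the 31 and 6.85% of all genes. The 2 were Cd36, with an interaction of 1.33 (SE 0.44, 95% interval 0.39 to 2.27, edgeR adjusted p = 0.547), and Preb, with -0.33 (SE 0.099, 95% interval -0.55 to -0.12, edgeR adjusted p = 0.499). Over the 31 genes 15 lay above 0 and 16 below, against 52.0% of all genes above, and the median was -0.01. Single libraries turned this balance: 26 lay above 0 without B+A0 replicate 1 (median 0.23), 25 without B+A10 replicate 3 (median 0.13), 23 without AOS10 replicate 1 and 22 without AOS0 replicate 1 (median 0.04 in both). Without B+A0 replicate 2, 9 lay above 0 (median -0.11), and 11 did so without B+A0 replicate 3 (median -0.06) and without B+A10 replicate 2 (median -0.12). The 7 T cell markers all lay above 0 in the interaction (median 1.80), each with an unadjusted p under 0.05 and none called, and 3 of the 4 macrophage markers did (median 1.27). The 6 apolipoprotein and editing genes and the 4 binding and activation genes all lay above 0, with medians of 0.30 and 0.24, and the 5 synthesis genes all lay below, with a median of -0.05. None of them passed after adjustment.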

How the data were processed

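RNA of 12 small intestine libraries was analysed. The authors deposited expected counts per gene, headed as read counts per the file headers; 8.9% to 9.33% of values were not whole (tolerance 1e-06), and all were rounded. The deposited expression values, which the authors' file gives without a unit, were taken as FPKM, that is counts divided by library size and transcript length. In the 5071 genes above 500 counts throughout, count divided by value tracked library size to within 0.149%. The submitters' processing notes name mm10; no aligner, counter or annotation is named in the sources used here. Group-mean columns were left out.

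The counts were analysed in R 4.3.3 with edgeR 4.0.16. Genes were kept by filterByExpr, libraries were scaled by TMM (factors between 0.969 and 1.05), and all 12 libraries entered a single quasi-likelihood fit. The 6 contrasts were adjusted over 12329 genes by Benjamini-Hochberg at 0.05. SE is the fitted log2 difference divided by the root of its F statistic. Replicate pairs differed by 8.28 to 35.4 in chi-square per degree of freedom, so none agreed within counting noise.

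The 31 genes and all lists were chosen with earlier results of these data known. Values in every library are given for genes called in any comparison, for the 2 largest and 2 smallest differences in both busulfan comparisons, and for 10 fixed genes; Sar1b and Slc27a4 were added after their values were seen. Other pathway genes are named where called, or where among the 4 smallest p in a direction in those comparisons and singled out in the text; 1 gene that this rule names is not reported here. Alternatives were DESeq2 1.42.0, its size factors, other count filters, separate fits of the compared groups, blocking on replicate number, omitting single libraries, and limma 3.58.1 on log2(FPKM + 1). Sequences and positions come from RefSeq (GRCm38). Figures were drawn with matplotlib 3.10.9.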

Additional observations from a re-analysis of the deposited data

How the results depend on the processing

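In B+A0 against AOS0, 2 of the 31 genes were called. Testing the compared groups alone left 1 (Cd36, with Preb at an adjusted p of 0.0555), and the replicate block left 0 (adjusted p = 0.0563 for Cd36 and 0.0523 for Preb). DESeq2 called 3 and 1025 genes in all, against 449 with edgeR. Leaving out each library gave 0 to 8 calls: 0 without any of the AOS0 libraries or B+A0 replicates 2 and 3, and 8 without B+A0 replicate 1 (Preb higher, and Cd36, Fabp1, Fabp2, Acsl5, Apob, Apoa4 and Apoc3 lower). Calls over all genes swung too. They were 42, 213 and 53 without AOS0 replicates 1 to 3, and 1099, 112 and 21 without B+A0 replicates 1 to 3. The median of the 31 genes ran from -0.30 to -0.01 over those fits. Replicate numbers did not pair the samples: same-numbered libraries of different groups correlated at -0.162 to 0.173 after group means were removed, and the best match in another group carried the library's own number for 2 of 12 libraries. In B+A10 against B+A0, DESeq2 called 1 of the 31 (Cd36) in place of 0, and leaving out libraries gave 0 to 1 (Fabp2 without B+A0 replicate 1, 1.01, adjusted p = 0.0447), with medians of 0.09 to 0.41. Leaving out libraries gave 0 calls throughout in AOS10 against AOS0 (medians 0.14 to 0.22), in B+A10 against AOS10 (medians -0.22 to 0.02) and for the interaction (medians -0.12 to 0.23, the highest without B+A0 replicate 1). In B+A10 against AOS0 it gave 0 to 3 calls (medians -0.04 to 0.21). The 3 were Dgat2, Surf4 and Plin3 without B+A10 replicate 3, where 763 of 12498 genes were called. Of the values of named genes under alternatives, 2252 kept their side of the threshold, 43 lost a call, 29 gained one and none that was called changed sign. Over all genes, DESeq2 called 82 in B+A10 against B+A0, 63 in AOS10 against AOS0 and 17 for the interaction, where edgeR called 0, and 138 against AOS10 and 463 against AOS0 for B+A10, where edgeR called 20 and 118. The causes were not tested.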
